A study of Mus musculus with 51 samples.

Results

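The transducin-like enhancer of split (TLE) genes encode the mammalian Groucho corepressors, and 5 of them were followed here: Tle1, Tle2, Tle3, Tle4 and Tle6, out of 24564 genes in the deposited table of read counts. They were taken by symbol over all 8 groups of the study, and the family was picked because Tle2 differed in its response to genotype between 2 kinds of neuron. That response is therefore described below and carries no test.

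The counts came from RNA-seq, made with the Smart-seq2 method for full-length cDNA from small amounts of RNA, of neurons isolated by fluorescence-activated sorting from the midbrain of adult mice. Midbrain dopaminergic (mDA) neurons came from the DatCreEed strain, whose name points to a Cre recombinase driven by the dopamine transporter gene, and serotonergic (5HT) neurons from the SertCreEed strain, named for the serotonin transporter gene. In each strain wt animals were set against animals labelled PRC2 mutant. Eed is a core subunit of Polycomb repressive complex 2 (PRC2), which methylates lysine 27 of histone H3 at silent developmental genes, and the study asked how these neurons differ in gene expression without a working complex. The mDA libraries were 9 wt and 10 mutant at 4 months and 8 wt and 8 mutant at 8 months. Each of the 5HT groups (wt and mutant, at 4 and at 8 months) held 4 libraries, and each library came from 1 animal. The labels do not say whether wt animals carried Cre. All 5HT libraries were in the sequencing batch named set1, whereas mDA libraries were spread over 3 sets, set1 among them. Whether set1 was the same batch in both cell types was not checked. Cell type and strain cannot be told apart in any comparison of levels between the cell types. Set differed in part between them and was no term of the fit of wt libraries.

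TLE proteins do not bind DNA themselves. They assemble through an N-terminal domain, and their C-terminal WD40 propeller docks onto short peptides in transcription factors: the WRPW tail of HES proteins, the related tail of RUNX proteins and the engrailed homology (eh1) peptide of many homeodomain, paired-box and forkhead factors. TCF/LEF factors bind the N-terminal region and are kept silent by TLE until WNT signalling brings in beta-catenin. TLE1 to TLE4 are the full-length corepressors. TLE6 is a divergent member, known best for its part in the maternal complex of the egg, and Aes (also called Tle5) is a short relative that lacks the propeller.

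The promoters of Tle2 and Tle4 are shown because, at the first start listed for each gene, they hold the same number of CpG dinucleotides while the expression of their genes differed in nearly every respect described below. CpG-rich promoters are the usual sites of PRC2 in mammals. In the RefSeq window of 300 bases around the annotated start, both had 28 CpGs. Observed over expected CpG was 0.89 for Tle2 and 0.88 for Tle4, higher than in 86.5% and 85.8% of 27018 genes, whose median was 0.39. A second listed start of Tle4 was richer, with 44 CpGs and a ratio of 1.1 (98% of genes were lower). The printed stretches are the upstream bases, on the coding strand of GRCm38.p6, with each CpG in capitals. For Tle2 this is chr10:81575037-81575261 on the plus strand, 225 bases with 18 CpGs, and for Tle4 chr19:14598184-14598433 on the minus strand, 250 bases with 24 CpGs. The Tle2 stretch is upstream of the listed start but lies inside the Tle2 gene model, which begins at 81574739.
Tle2: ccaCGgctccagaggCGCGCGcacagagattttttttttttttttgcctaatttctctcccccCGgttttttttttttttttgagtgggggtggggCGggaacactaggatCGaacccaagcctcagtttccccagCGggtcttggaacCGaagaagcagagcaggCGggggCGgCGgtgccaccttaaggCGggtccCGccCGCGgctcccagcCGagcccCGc
Tle4: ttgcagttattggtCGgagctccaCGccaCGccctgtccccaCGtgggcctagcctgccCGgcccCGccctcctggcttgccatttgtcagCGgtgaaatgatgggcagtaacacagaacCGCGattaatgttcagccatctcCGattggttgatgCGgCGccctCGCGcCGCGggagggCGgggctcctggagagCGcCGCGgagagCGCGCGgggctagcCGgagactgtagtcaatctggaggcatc
Tle1 (40 CpGs, ratio 1.0) and Tle3 (21 CpGs, ratio 0.98) were likewise CpG-rich. The Tle6 window had 18 CpGs and a ratio of 0.53, and a second annotated Tle6 start had 3 CpGs and a ratio of 0.13. No measure of histone marks or binding entered this comparison, so these are properties of the sequence alone.

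Total counts per library ran from 1644460 to 12250492, so that 3 counts, used as the floor of detection, stood for 0.237 to 1.84 CPM (counts scaled to a library total of 1e+06, with TMM factors over all 51 libraries). The floors, and the interval of the Tle6 count ratio, cover counting error only, and the other intervals come from the fit over animals. Counts over the whole Eed gene were not lower in mutants, whose means were the higher ones in both cell types at both ages. In 5HT neurons at 8 months they were 17.5 ± 5.52 CPM against 13.5 ± 2.11 in wt (SD, n = 4 each). At 4 months the 5HT ranges did not overlap (21.4 to 29.3 CPM in mutants, 7.7 to 14.3 CPM in wt). The mDA means were 23.7 against 14.1 CPM in wt at 4 months and 22.4 against 13.5 CPM at 8 months. The labels do not give the deleted part, so this does not check it. The summed level of 27 Hox genes, textbook PRC2 targets, was 380 to 533 CPM in mutant and 5.89 to 10.1 CPM in wt 5HT neurons at 8 months, and 219 to 722 against 4.38 to 39.5 CPM in mDA neurons. The highest wt mDA value was that of animal C250, the library with the lowest total. Sorted cells carried their defining genes: in wt at 8 months Tph2, the serotonin-synthesising hydroxylase, was at 2740 ± 542 CPM in 5HT neurons (n = 4), and Th, the tyrosine hydroxylase of dopamine synthesis, ran from 941 to 2160 CPM in mDA neurons.

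Tle2 was the dominant TLE gene of mDA neurons and a minor one in wt 5HT neurons, and in 8-month-old 5HT mutants it stood near the mDA level. In wt mDA neurons Tle2 had a lowest, median and highest level of 179, 263 and 405 CPM at 4 months (277 ± 75.4, n = 9). At 8 months these were 128, 237.2 and 314 CPM (236 ± 57.2, n = 8). Every wt mDA library lay above every wt 5HT library.

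In wt 5HT neurons the 4 animals had Tle2 at 14.5, 22.8, 22.9 and 33.3 CPM at 4 months and at 8.87, 9.55, 26.5 and 33.8 CPM at 8 months. Their means were 23.4 ± 7.72 and 19.7 ± 12.5 CPM and lay below every mDA library. The fitted difference between the wt cell types, with age and sex as terms, was -3.54 on the log2 scale (SE 0.228). It carries no p here because the same wt libraries enter the comparison that selected Tle2.

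In 5HT mutants at 4 months Tle2 was at 21.9, 50.3, 68.6 and 94 CPM (58.7 ± 30.4), 2.51 times the wt mean. The groups overlapped, since 3 of 4 mutants were above the highest wt animal and the lowest mutant lay inside the wt range. At 8 months the mutants had 188, 194, 213.2 and 226.2 CPM (206 ± 17.4), 10.4 times the wt mean of 19.7 CPM. The groups no longer overlapped, and the 4 mutants were spread over a narrower range than the 4 animals at 4 months. Of all 15633 genes in that comparison 3.72% had mutants wholly above wt. This share is given for scale, since Tle2 was selected on this contrast.

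In mDA neurons the same comparison left Tle2 within the spread of its controls. The 10 mutants at 4 months had a lowest, median and highest level of 225.7, 274 and 356 CPM (283 ± 44.6), and the 8 mutants at 8 months 229, 266 and 358 CPM (280 ± 50.2). The ratios of the means were 1.02 and 1.19, and 0 of 10 and 2 of 8 mutants exceeded the highest wt library. At 8 months set3 held 2 wt and 0 mutant mDA libraries. Those 2 enter the means but, with the set in the fit, do not inform the fitted mDA differences of any gene at that age. On the log2 scale the fitted genotype differences of Tle2 were 0.07 (SE 0.118) at 4 and 0.07 (SE 0.141) at 8 months in mDA, against 1.32 (SE 0.412) and 3.40 (SE 0.435) in 5HT neurons. The 5HT difference exceeded the mDA one by 1.27 at 4 and 3.32 at 8 months. Between the ages the genotype difference of Tle2 changed by 2.08 in 5HT neurons and by -0.0043 in mDA neurons. One wt animal, S385, had the highest Tle2 level of its group (33.8 CPM). Without it the 5HT difference at 8 months was 4.12, the largest value on leaving out any 1 of the 8 animals.

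**Figure D1:**
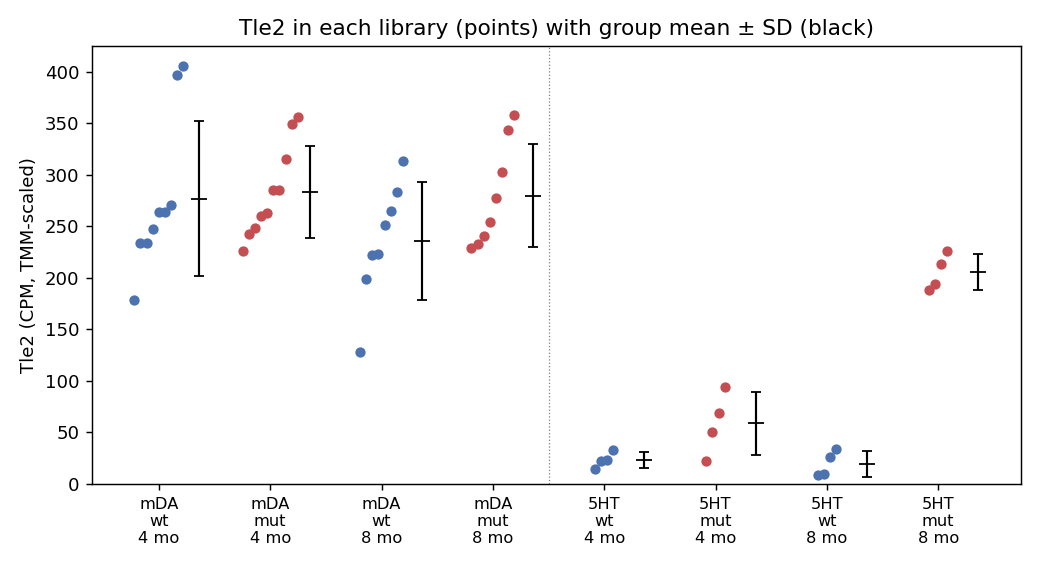
Tle2 level (CPM, TMM-scaled, vertical axis) in each of the 51 libraries, by cell type, genotype and age (horizontal axis), with the group mean and SD. The 4 mutant 5HT libraries at 8 months lie at 188 to 226.2 CPM, beside the mDA groups and apart from the other 5HT groups.

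Ordered by mean, the Tle2 levels ran from mDA mutants at 4 months, mDA mutants at 8 months, mDA wt at 4 months and mDA wt at 8 months to 5HT mutants at 8 months, and no 2 neighbours in that stretch differed beyond the larger SD. The next group, 5HT mutants at 4 months, was 146.8 CPM lower, beyond the SD and without overlap. It was followed by 5HT wt at 4 months, 35.3 CPM lower and beyond the SD though with overlapping ranges, and by 5HT wt at 8 months, within the SD. The sequencing sets of the mDA libraries did not line up on Tle2: in wt animals at 4 months the set means were 230 (n = 3), 334 (n = 4) and 234 CPM (n = 2), and in mutants 281 (n = 4), 300 (n = 4) and 256 CPM (n = 2). Within set1 alone the fitted mDA difference of Tle2 at 4 months was 0.42 on the log2 scale, larger than over all sets. In set1 at that age the 3 wt animals were male and the 4 mutants female, so genotype and sex cannot be told apart in that value.

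Other genes moved alongside Tle2 in the 5HT mutants at 8 months. Of 13 serotonergic markers, 7 were lower at an adjusted p under 0.05 (edgeR), at a background of 0.397% of genes called in either direction. Tph2 was at 401 ± 108 CPM, and the serotonin transporter gene Slc6a4 at 546 ± 44.3 against 2680 ± 118 CPM in wt. Of 14 dopaminergic markers 12 were tested, 0 were higher and 2 were lower, namely Slc18a2 and Ddc, which serotonergic neurons also use. Their sum was 1860 to 2190 CPM in mutants and 4350 to 4860 CPM in wt, and none of the 14 was at 0 throughout the mutants. Of the 12 tested, 4 had a positive difference. Th ran from 8.77 to 27.1 CPM in mutants and 13.9 to 35.8 CPM in wt, and the dopamine transporter gene Slc6a3 from 5.73 to 25.6 and 7.28 to 32.4 CPM, so both overlapped. Nr4a2, a nuclear receptor of the dopaminergic programme, was higher in all mutants than in any wt animal, at values given with the genes most like Tle2. Of 5 markers of inhibitory neurons 2 were higher, the vesicular transporter gene Slc32a1 by 2.15 (adjusted p = 0.0128, edgeR) and the glycine transporter gene Slc6a5 by 2.98 (adjusted p = 0.0149) on the log2 scale. The inhibitory sum was 651 to 758 CPM in mutants and 265.4 to 391 CPM in wt. Of 12 astrocyte, 12 oligodendrocyte and 10 microglial markers 0 were called, and the astrocyte sum was 731 to 839 CPM in mutants and 725 to 1080 CPM in wt. All 10 microglial differences were negative, and the microglial sum did not overlap (median 96.5 CPM in mutants and 145.7 CPM in wt). The ependymal and choroid sum was 12.2 to 175.9 CPM in mutants and 5.61 to 9.98 CPM in wt, also without overlap, with 0 of 3 tested genes called. Of 3 glutamatergic markers 0 were called and 1 had a positive difference (median log2 difference -0.35). Their sum overlapped, at 127.1 to 175.7 CPM in mutants and 71.56 to 127.9 CPM in wt. Slc17a6, a vesicular glutamate transporter gene, was at 90.8 to 130.7 CPM in mutants and 7.45 to 72.7 CPM in wt. The part of inhibitory, glutamatergic, microglial or ependymal markers in the Tle2 level was not tested. In bulk libraries fewer cells of a type and less RNA per cell cannot be told apart.

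Tle3, the other full-length member that was higher in mDA than in 5HT neurons, was far less abundant than Tle2 per length of transcript in mDA neurons. In mDA neurons it was at 34.3 ± 10.4 CPM in wt (n = 9) and 38.2 ± 15.3 CPM in mutants (n = 10) at 4 months. At 8 months it was at 42.3 ± 12.6 CPM in wt (range 24.2 to 61.6) and 58.9 ± 14.5 CPM in mutants (38.3 to 76.5, n = 8 each). The ranges overlapped at both ages, with 4 of 8 mutants above the highest wt library at 8 months.

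The 5HT animals had Tle3 at 9.83, 10.4, 12.9 and 20.7 CPM in wt and 12, 14.1, 21.1 and 35.5 CPM in mutants at 4 months. At 8 months wt animals had 11.8, 20.6, 23.5 and 27.6 CPM, and mutants 24, 41.1, 49.8 and 53.3 CPM, so 3 of 4 mutants exceeded every control. None of these Tle3 differences passed the test over all genes. The fitted log2 difference was 0.58 in mDA (SE 0.257, adjusted p = 0.216, edgeR) and 1.11 in 5HT neurons at 8 months (SE 0.411, adjusted p = 0.578, edgeR), where 4.32% and 0.397% of all genes were called. At 4 months the differences of Tle3 were 0.13 and 0.60 (adjusted p = 0.844 and 0.911, edgeR).

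Tle1, widely expressed in the brain, lay between 23.5 and 41 CPM in all group means. Its mDA levels were 38.4 ± 16 in wt and 39.2 ± 17.2 CPM in mutants at 4 months, and 40 ± 11.3 and 32 ± 11 CPM at 8 months. In 5HT neurons wt animals had 25.7, 41.1, 48.2 and 48.9 CPM and mutants 18.2, 26.3, 31.2 and 35.6 CPM at 4 months. At 8 months they had 25, 29.6, 32.2 and 38.2 CPM in wt and 11.5, 21.5, 26.8 and 34.1 CPM in mutants. In both cell types at 8 months, and in 5HT neurons also at 4 months, the mutant mean of Tle1 was the lower one, with overlapping groups. The log2 differences were -0.08 and -0.34 in mDA (adjusted p = 0.926 and 0.585, edgeR) and -0.53 and -0.36 in 5HT neurons (adjusted p = 0.884 and 1).

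Tle4, which marks deep-layer neurons in the cortex, was the only one of the 5 with a higher mean in wt 5HT than in wt mDA neurons at both ages. Its mDA means were 20.4 ± 6.4 and 19 ± 7.37 CPM in wt and mutants at 4 months and 18 ± 9.45 and 17.2 ± 4.43 CPM at 8 months. In 5HT neurons at 4 months wt animals had 22.1, 22.8, 42.5 and 54.9 CPM and mutants 27.4, 32.7, 46 and 54.8 CPM. At 8 months these were 11.4, 21.9, 26.9 and 37.9 CPM in wt and 13.6, 14.3, 21.5 and 28.8 CPM in mutants. Mutant and wt ranges of Tle4 overlapped in all 4 comparisons, and the log2 differences of -0.08, 0.03, 0.20 and -0.30 had adjusted p-values (edgeR) of 0.917, 0.974, 0.986 and 1.

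Tle6 was scarce. Its levels were 6.14 ± 2.81 CPM in wt and 9.36 ± 4.91 CPM in mutant mDA neurons at 4 months and 6.22 ± 3.07 and 7.3 ± 3.91 CPM at 8 months. In wt 5HT animals at 4 months the counts themselves were 0, 0, 0 and 1, and in mutants 0, 8, 17 and 23. The 48 mutant counts against 1 gave a depth-adjusted ratio of 45 with a 95% counting interval of 7.7 to 1810, and the edgeR test over animals did not pass (adjusted p = 0.57), in a comparison where 0.0128% of genes were called. At 8 months Tle6 was at 0.905, 1.87, 2.25 and 4.98 CPM in wt and 2.81, 3.99, 5.63 and 6.59 CPM in mutant 5HT neurons, which overlapped (0.85 on the log2 scale, adjusted p = 1, edgeR). In mDA neurons the differences of Tle6 were 0.60 and -0.13 (adjusted p = 0.476 and 0.921, edgeR), where 1.17% and 4.32% of genes were called.

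The Tle2 and Tle6 gene models run towards each other on chromosome 10 (81574739 to 81592581 and 81590904 to 81601185, GRCm38.p6) and share 1678 bases at their ends. The sources used here do not give whether reads were counted by strand. Without strand, reads of the shared end, or of an antisense transcript at Tle2, could not be told apart from the named gene. The GENCODE transcripts of Tle2 and Tle6 shared 0 stretches of 50 bases on either strand. Tle6 counts came to 2.25% to 3.01% of Tle2 counts in the mDA groups. In 5HT neurons they came to 0.22%, 4.46%, 11.7% and 2.33% (wt and mutant at 4 months, then at 8 months), so the proportion of Tle6 to Tle2 was not constant there. Among the 15 pairs of the 5 genes and Aes, only Tle1 and Tle4 shared any exact stretch of 50 bases between their GENCODE transcripts (21 such stretches).

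**Figure D2:**
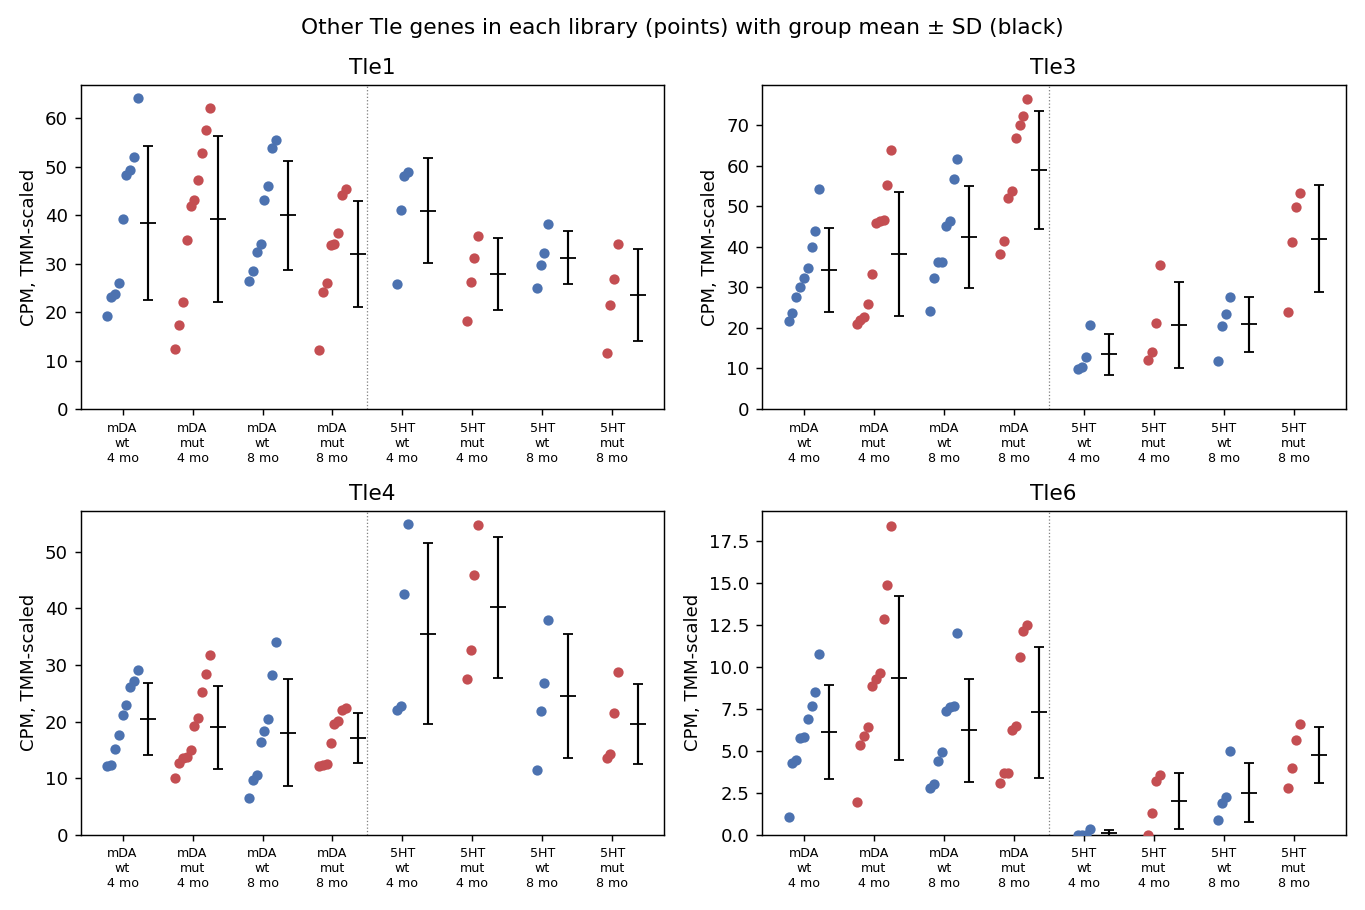
Levels (CPM, TMM-scaled, vertical axes) of Tle1, Tle3, Tle4 and Tle6 in each library by group (horizontal axes), with the group mean and SD. Mutant and wt ranges overlap for each of these genes in both cell types at both ages.

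**Figure D3:**
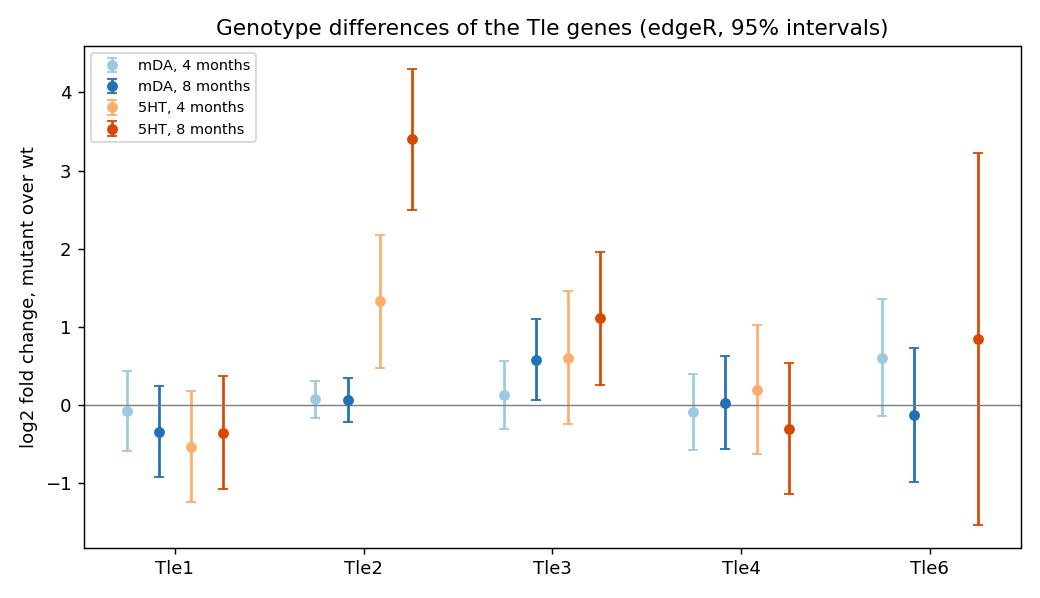
Fitted log2 differences between mutant and wt (vertical axis) for the TLE genes in the 4 comparisons, with 95% intervals. The intervals of Tle2 are no test, because the family was picked by the response of Tle2 to genotype. The values for Tle2 in 5HT neurons, 1.32 at 4 and 3.40 at 8 months, lie apart from its mDA values of 0.07, and Tle6 in 5HT neurons at 4 months is not drawn because wt animals had 1 count in all.

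The other 4 members were also compared for a difference of genotype effect between the cell types, in 1 fit of all 51 libraries. None passed, where 0.0925% of genes at 4 and 0.179% at 8 months were called. Tle6 at 4 months was the nearest (log2 difference 4.15, adjusted p = 0.12, edgeR), resting on the 1 wt count. For Tle3 the difference was 0.51 (95% interval -0.33 to 1.35) at 4 months and 0.51 (-0.38 to 1.39) at 8 months. For Tle1 it was -0.43 (-1.31 to 0.47) and -0.02 (-0.96 to 0.93), and for Tle4 0.29 (-0.61 to 1.19) and -0.34 (-1.32 to 0.64).

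Between the wt cell types, a contrast of 17 mDA with 8 5HT libraries in which 19.8% of genes were called, Tle3 and Tle6 were lower in 5HT neurons. The log2 difference was -1.23 for Tle3 (SE 0.212, adjusted p = 3.76e-05, edgeR) and -2.71 for Tle6 (SE 0.651, adjusted p = 0.00231, edgeR). In the 8-month animals alone Tle6 no longer passed (-1.15, adjusted p = 0.258), and over the alternatives tried its adjusted p ran from 2.13e-06 to 0.258. Tle4 was 0.64 higher and missed the threshold (SE 0.26, adjusted p = 0.0797). It passed without animal S369 (0.72, adjusted p = 0.0445) or without animal S381 (0.74, adjusted p = 0.0374), with a range over alternatives from 0.0374 to 0.482. Tle1 differed by -0.15 (95% interval -0.58 to 0.27, adjusted p = 0.676). Aes, the short relative, was 0.42 lower in 5HT neurons (log2 difference -0.42, adjusted p = 0.0239, edgeR), and in none of the genotype comparisons did it pass (adjusted p = 0.642, 0.826, 0.992 and 1 for mDA and 5HT at 4 and 8 months, in that order of age within each cell type). With 19.8% of all genes called between these sorted populations, such a call does not set a TLE gene apart.

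Between 4 and 8 months in wt animals edgeR called 0 genes in either cell type (1204 in mDA and 964 in 5HT neurons at an unadjusted p under 0.05, and 26 and 77 by DESeq2). The TLE genes had adjusted p-values of 0.738 or more in mDA and 0.765 or more in 5HT neurons. For Tle2 the difference was -0.20 (95% interval -0.48 to 0.08) in mDA and -0.25 (-1.1 to 0.60) in 5HT neurons.

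Levels of different genes can be set side by side only per length, here CPM per kb of merged exon. In wt mDA neurons at 4 months Tle2 was at 44.5, Aes at 23.2, Tle1 at 4.41, Tle4 at 3.58, Tle3 at 2.94 and Tle6 at 1.99 CPM per kb. In wt 5HT neurons at 4 months Aes led at 20.5 CPM per kb, before Tle4 at 6.23, Tle1 at 4.7, Tle2 at 3.76, Tle3 at 1.15 and Tle6 at 0.0271. In 5HT mutants at 8 months Tle2 was first at 33 CPM per kb, followed by Aes at 16.7, and Tle3 (3.61), Tle4 (3.43) and Tle1 (2.7) lay close together.

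Tle1 to Tle4 summed to 113 ± 14.8 CPM in wt and 147.4 ± 43.1 CPM in mutant 5HT neurons at 4 months, and to 96.3 ± 18.4 and 291 ± 27.6 CPM at 8 months (n = 4 each). The mDA sums were 336 to 388 CPM in the 4 group means. Of that sum on the CPM scale, Tle2 had a median share of 18.8% in wt 5HT neurons at 4 months (range 15.6 to 28.5%) and 16.9% at 8 months (10.3 to 34.7%). In mutants the share of Tle2 was 39% (24.4 to 48.5%) and then 71% (64.5 to 77.3%), and in mDA neurons the medians ran from 70.7% to 73.5%. These sums and shares hold the same Tle2 values as above and add no separate evidence.

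In 5HT neurons, with 0.0128% of all genes called at 4 and 0.397% at 8 months, none of the tested genes beside Tle2 on chromosome 10 was called. From low to high coordinates they are Gna15, Gna11, Aes, Tle2, Tle6, the transcribed pseudogene BC025920, Sirt6 and Ankrd24, at -72.4 to 53.1 kb from the Tle2 start. Gna11, a G protein subunit gene, was at 104 ± 12.1 CPM in wt and 117 ± 12.1 CPM in mutant 5HT neurons at 8 months, and Aes at 51 ± 9 and 55.6 ± 10 CPM. Ankrd24 was at 80.4 ± 15.3 and 85.3 ± 12.9 CPM. The fitted log2 differences were 0.10 for Gna11, 0.17 for Aes, 0.19 for BC025920, 0.50 for Sirt6 and 0.17 for Ankrd24, all with adjusted p = 1 (edgeR). Gna15 was too low to test, at 1.45 CPM or less in every group mean. One neighbour was called in mDA neurons, at 4 months, where 1.17% of all genes were called. Sirt6, a sirtuin deacylase gene, fell by 0.50 at that age (60.7 ± 15.5 CPM in wt, 40.3 ± 9.65 CPM in mutants, adjusted p = 0.046, edgeR). At 8 months Sirt6 was at 54.8 ± 13.7 and 72 ± 12.1 CPM (0.32, adjusted p = 0.281), and the change of its genotype effect between the ages was 0.82 (adjusted p = 0.0115, edgeR), where 6.11% of genes were called.

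**Figure D4:**
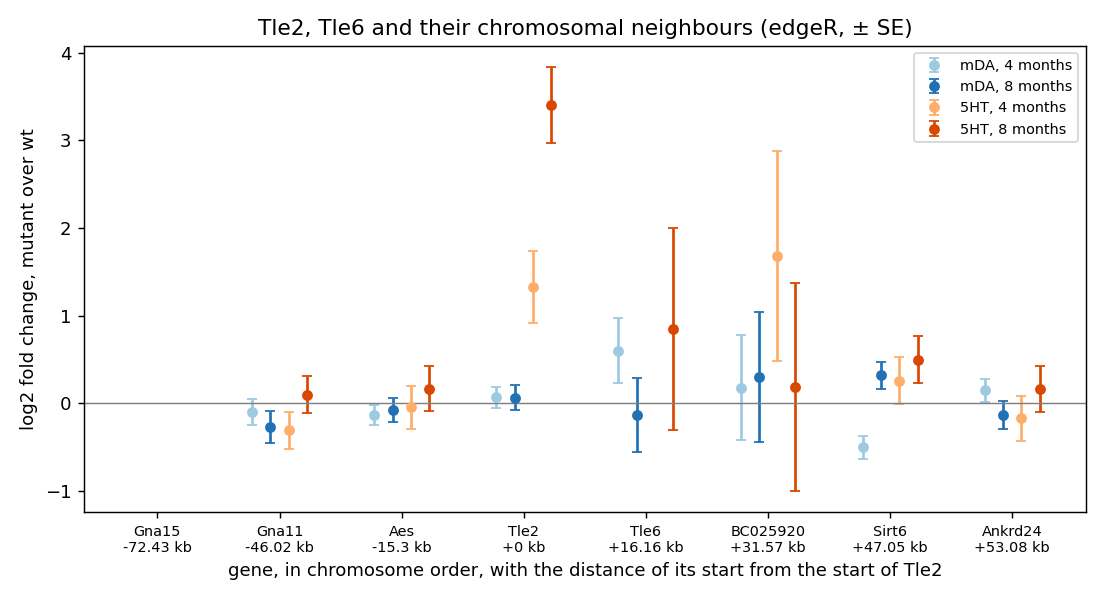
Fitted log2 differences between mutant and wt (vertical axis) for the genes around Tle2 in chromosome order, with the distance of each start from the Tle2 start in kb (horizontal axis), in the 4 comparisons, with bars of ± SE; the untested Gna15 and Tle6 in 5HT neurons at 4 months are not drawn. Tle2 in 5HT neurons at 8 months (3.40) stands above its tested neighbours, which lie at 0.10 to 0.85 in the same comparison.

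Across all 51 libraries the genes most like Tle2 by Pearson correlation of log2 CPM, among 18386, were Ret (0.897), Gpr83 (0.892), Nr4a2 (0.888), A930011O12Rik (0.879) and Mboat1 (0.865). The libraries share cell type, depth and strain, and within mDA libraries alone these correlations were 0.121, 0.553, 0.256, 0.529 and -0.01. Within the 16 5HT libraries they were 0.768, 0.748, 0.688, 0.724 and 0.644. Ret, the receptor kinase for GDNF-family ligands, ran from 42.8 to 57.1 CPM in wt and from 190.7 to 291.9 CPM in mutant 5HT neurons at 8 months, and from 482.3 to 1490 CPM over all mDA libraries. Nr4a2 ran from 0 to 2.35 CPM in wt and from 5.56 to 18.2 CPM in mutant 5HT neurons at 8 months, and from 117.7 to 286.3 CPM over the mDA libraries. The 5HT mutants at 8 months thus lay below every mDA library for Ret and Nr4a2, and likewise for Mboat1 (1.16 to 7.2 CPM, with mDA libraries from 11.3 CPM). For Gpr83 (4.63 to 11.3 CPM) they overlapped only the low end of mDA wt at 8 months (4.46 to 27.9 CPM). The other mDA groups lay above them for Gpr83, from 12.4 CPM. For A930011O12Rik (531.3 to 715.2 CPM) the 5HT mutants at 8 months overlapped the mDA libraries (from 606.6 CPM). Having been chosen by likeness to Tle2, these genes carry no test.

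Among the other members, the nearest genes were Evi5 (0.739) and Znrf1 (0.703) for Tle1, Pax6 (0.732) for Tle3, Htr1b (0.618) and Vipr1 (0.561) for Tle4, and A930011O12Rik (0.747) and Ptpru (0.73) for Tle6. Tle3 and Pax6 correlated at 0.873 within the 5HT and 0.474 within the mDA libraries. Between the members themselves, Tle2 correlated with Tle6 at 0.702 and with Tle3 at 0.672 over 51 libraries, and with Tle4 at -0.453. Within mDA libraries Tle2 and Tle3 correlated at 0.099, and within 5HT libraries at 0.637.

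Transcription factors of the families through which TLE proteins reach DNA were read from lists chosen with earlier results of these data known. Of 22 homeodomain, paired-box and forkhead factors listed for the eh1-type peptide, 15 passed the filter on low counts in mDA and 16 in 5HT neurons. Whether each listed factor carries the peptide, Pax6 among them, was not checked, so binding to TLE is not implied for any of them. Factors at low levels in wt could pass through mutants alone. In mDA neurons at 8 months 6 of the 15 were higher and 1 was lower, where 4.32% of all genes were called. The median log2 difference was 2.02 against 0.02 for all genes tested, and 2.02 also with genes of 3 wt counts or fewer held at the floor. Pax6, a paired-box regulator of forebrain and eye, rose by 3.92 on the log2 scale (6.98 ± 3.66 to 84.1 ± 19.3 CPM, adjusted p = 1e-11, edgeR). Nkx2-2 rose by 3.58 (adjusted p = 0.0117) and Six3 by 2.57 (adjusted p = 0.00231). Foxd3 went from 1 count in all wt animals to 556 counts in mutants. It is among the 6 but passed the filter through mutants alone, so no p is given for it. En1, the engrailed factor that maintains dopaminergic neurons, fell by 1.54 (117 ± 23.2 to 41 ± 9.63 CPM, adjusted p = 2.17e-09). Markers of cell types moved in the same comparison: 10 of 14 dopaminergic markers were lower (sum 6300 to 11600 CPM in wt, 3920 to 5360 CPM in mutants) and 4 of 5 inhibitory ones higher (sum up to 491.1 CPM in wt and 668.5 to 966.2 CPM in mutants). All 12 astrocyte differences were positive, with 2 called (sum 443.4 to 870.2 CPM in wt, 561.1 to 3020 CPM in mutants), and 2 of 11 endothelial and mural markers were called higher (8.99 to 63.3 and 9.15 to 1090 CPM). Without D161 and D176, the mutants with the highest endothelial and the highest astrocyte sum, the listed factors again had 6 higher and 1 lower. The part of the dopaminergic and inhibitory markers was not tested. At 4 months 2 of 15 factors were higher in mDA mutants, where 1.17% of all genes were called. Among them was Foxd3 (2 wt counts in all, and 3 ± 1.82 CPM in mutants), again given without a p because it passed the filter through mutants alone.

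In 5HT neurons, where Tle2 differed, 0 of 16 of these factors were called at either age, where 0.0128% of all genes at 4 and 0.397% at 8 months were, with a median log2 difference of 0.30 at 4 months (0.14 with genes of 3 wt counts or fewer held at the floor) and 2.6 at 8 months. Pax6 was at 2.59 ± 2.33 CPM in wt and 44.1 ± 15 CPM in mutants at 8 months (4.17, adjusted p = 0.0686). Six6 had 0 counts in wt and 92 in mutants and may have passed the filter through mutants alone, so no p is given for it. En1 was at 21.1 ± 2.63 and 19.5 ± 1.86 CPM (adjusted p = 1, edgeR). In a test of the difference between the cell types at 8 months, 1 of 18 listed factors was called, En1, where 0.179% of all genes were.

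**Figure D5:**
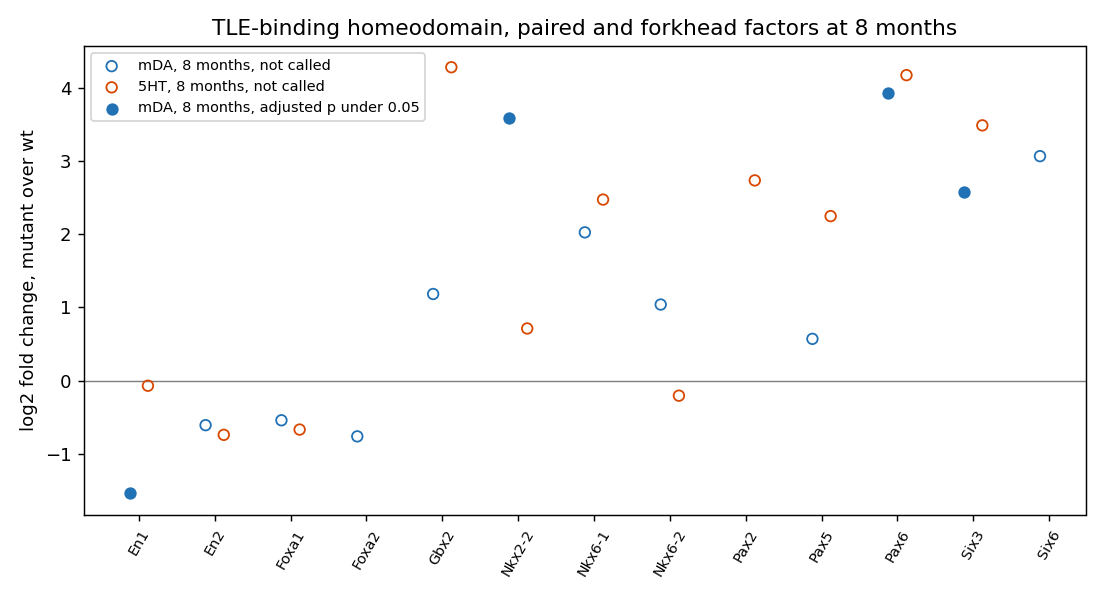
Fitted log2 differences between mutant and wt at 8 months (vertical axis) for factors listed for the eh1-type peptide (horizontal axis), in mDA and 5HT neurons, with filled points at an adjusted p under 0.05. Binding to TLE was not checked for each factor, Pax6 among them. Pax6 lies at 3.92 in mDA and 4.17 in 5HT neurons and En1 at -1.54 and -0.07, and values with 3 wt counts or fewer, such as Foxd3, are among those not drawn.

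Few of the other listed factors were called. The share of all genes called was 1.17% at 4 and 4.32% at 8 months in mDA neurons, and 0.0128% and 0.397% in 5HT neurons. In mDA neurons at 8 months 1 of 3 tested TCF/LEF genes was higher, Lef1 (4.3 ± 5.43 to 18.8 ± 11.7 CPM, log2 difference 1.90, adjusted p = 0.0281, edgeR). Of 4 genes for RUNX proteins and their partner, 1 was higher, Runx3 (0.909 ± 1.08 to 14.3 ± 5.04 CPM, 3.64). With 41 counts in all wt animals, Runx3 may have passed the filter on low counts through mutants alone, so no p is given for it. In 5HT neurons at 8 months Runx3 was at 0.331 ± 0.291 and 7.79 ± 6.8 CPM, and neither list had a called gene. Of 6 HES-type genes the 3 that were tested, Hes1, Hes5 and Hes6, were not called in any genotype comparison.

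Genes downstream of the pathways that TLE restrains were mostly uncalled. Of 12 WNT feedback targets 9 were tested in mDA neurons, where 1.17% of all genes at 4 and 4.32% at 8 months were called. At 4 months Lgr5 was higher (1.42, adjusted p = 0.0429, edgeR), and at 8 months Ccnd1 (7.3 ± 3.4 to 21.2 ± 7.17 CPM, 1.51, adjusted p = 0.00854) and Lef1. In 5HT neurons 0 of 10 were called at either age, where 0.0128% of all genes at 4 and 0.397% at 8 months were. The medians of these targets were 0.14 and 0.35 against 0.01 for all genes. Of 21 NOTCH pathway genes 0 were called in any of the 4 genotype comparisons (21 tested in mDA, 18 in 5HT neurons).

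Among the enzymes and adaptors that work with TLE, 2 calls were made. Of 14 cofactors 13 were tested. Of all genes, 1.17% at 4 and 4.32% at 8 months were called in mDA neurons, and 0.0128% and 0.397% in 5HT neurons. In mDA neurons at 4 months Hipk2, a kinase that phosphorylates Groucho proteins, rose by 0.67 (59.4 ± 19.1 to 107.4 ± 45.8 CPM, adjusted p = 0.0155, edgeR) and the histone deacetylase gene Hdac3 fell by 0.55 (447.2 ± 120 to 291 ± 111 CPM, adjusted p = 0.0094). At 8 months, and in 5HT neurons at both ages, 0 of 13 were called. Of 15 genes of other corepressor complexes, Ctbp2 alone was called, in mDA neurons at 8 months, where it fell by 0.65 (92.8 ± 31.9 to 59.9 ± 12 CPM, adjusted p = 0.0115). Of 11 genes for PRC2 subunits 0 were called in the genotype comparisons. 

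Libraries that stood apart bore on Tle2 and Tle3 as follows. In mDA neurons at 8 months mutant D176 had an astrocyte marker sum of 3020 CPM against a group median of 838 CPM, and mutant D161 an endothelial and mural sum of 1090 CPM against a median of 28.3 CPM. Without D176 the genotype difference was 0.05 for Tle2 and 0.62 for Tle3 (adjusted p = 0.196, edgeR), and without D161 it was 0.08 for Tle2 and 0.49 for Tle3 (adjusted p = 0.3, edgeR). Without both it was 0.06 for Tle2 and 0.52 for Tle3 (adjusted p = 0.28, edgeR). Wt animal C250 had the lowest total (1644460 counts) and the lowest Tle2 of its group (128 CPM). Its sequencing set held wt animals alone at that age, so with the set in the fit it does not inform the genotype difference.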

How the data were processed

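The data are 1 table of raw read counts by gene, as deposited, for the 51 libraries. STAR 2.7.0a and mm10 (GRCm38) are named for the alignment, per the submitters' processing notes. How reads were counted, and whether by strand, is not stated in the sources used here. Sex, age, genotype and sequencing set come from the labels, which number each animal separately. Columns were compared: 0 pairs were identical, and replicates differed by a chi-square of at least 6.97 per degree of freedom. A row for the mCherry reporter was left out.

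Tests used edgeR 4.0.16 in R 4.3.3 on the deposited counts, with TMM factors, filterByExpr (minimum count 10) and robust quasi-likelihood dispersions. P-values were adjusted by the Benjamini-Hochberg method over all genes tested, and a gene was called under 0.05. Sequencing set within age, and sex, were terms of the fit of 35 mDA libraries. Sex was the term for the 16 5HT libraries, both entered the fit of all 51 for differences between cell types, and age and sex that of the 25 wt libraries. SE is the absolute log2 difference over the square root of F. Alternatives were DESeq2 1.42.0, other size factors, no filter, no term for sex or set, single sets or ages, and leaving out each animal. The scripts were tested on simulated data. Positions and promoters are those of RefSeq for GRCm38.p6 (96.3% of symbols matched), and exon lengths those of GENCODE. Named genes were the 5 members, Aes, the nearest 3 genes on either side of the chromosome 10 members, the 5 genes most like Tle2 and 2 for each other member, and called list members with the smallest p. Some genes within the rule are left unreported. Six3, Six6, Nkx2-2 and the uncalled list genes were added after their values were seen. The members and lists were chosen with earlier results of these data known.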

Additional observations from a re-analysis of the deposited data

Results flagged for a closer look

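In wt 5HT neurons at 4 months the library of animal S369 had 0.335 CPM of Tle6 and the other 3 had 0, so its gap to the others spanned the whole range of the group. This is 1 count. Among 48 combinations of gene and group it was the 1 that passed the limit for a lone value, where chance passes about 1 in 20. A row for the mCherry reporter, which entered no comparison, held at most 0.00294% of a library's counts and 3 counts or fewer in 3 libraries.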

How the results depend on the processing

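Tle3 kept its direction and its side of the threshold in all 155 alternatives run over its comparisons. Tle2, given without a test, changed sign in 7 of 155: the wt 5HT ages without animal S381 or S382, and its near-zero mDA differences in set2 alone (-0.12 at 4 and -0.078 at 8 months) and, for the change between ages, without the filter, sex or the set (0.014, 0.026 and 0.16). Genes called moved most. With DESeq2 they were 77 and 26 between the wt ages in 5HT and mDA neurons (0 by edgeR), 343 and 1114 for genotype in mDA and 126 and 208 in 5HT neurons at 4 and 8 months (181, 666, 2 and 62 by edgeR), 262 and 159 for the difference between cell types (17 and 33), and 86 for that between ages in 5HT neurons (2). Without the filter they were 2 for the wt 5HT ages, 9 for the cell types and 12 for 5HT genotype at 4 months, and 5 between ages in 5HT neurons. Without sex they were 1 for the wt 5HT ages, 154 for the change of the mDA effect between ages and 393 in mDA at 8 months. Without the set they were 615 for that change and 57 in mDA at 4 months. In set1 alone mDA at 4 months had 1502, with wt male and mutants female, in set2 alone 8, and mDA at 8 months in set2 alone 109. The wt cell types at 4 months alone had 1603 (3202). The cause of these shifts was not tested.

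Leaving out 1 animal gave 78 (without D296) to 485 (without C213) calls in mDA at 4 months, with 12 of 19 animals moving the count by over 1.5 times. It gave 0 to 4 and 30 to 49 in 5HT neurons, and 9 to 41 and 12 to 35 for the cell types. For Tle2 it gave -0.91 (without S385) to 0.021 (without S382) between the wt 5HT ages, 3.15 to 4.12 for 5HT genotype at 8 months, 3.08 to 3.87 for the cell types at 8 months and 1.77 to 2.83 for the 5HT change between ages, each highest without S385. In set1 alone Tle2 in mDA at 4 months was 0.42.

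Small differences reversed. Tle1 was -0.0031 for the wt mDA ages without sex, 0.029 by DESeq2 and 0.028 with RLE factors for the cell types at 8 months, and 0.026, 0.35 and 0.063 in mDA at 4 months without sex, in set1 and in set2, and 0.11 for the wt cell types at 4 months alone. Tle4 in mDA at 8 months was -0.014 without sex, -0.071 without set and -0.39 in set2, and its mDA change between ages -0.0073 without set. Tle6 in mDA at 8 months was 0.027 without sex, 0.12 without set and 0.41 in set1, and for the wt mDA ages 0.088 without C250, chosen after seeing the data. With single animals left out, Tle1 ran from -0.31 to 0.17 for the cell types at 8 months, -0.12 to 0.38 for the 5HT change between ages and -0.23 to 0.055 in mDA at 4 months. Tle4 ran from -0.030 to 0.50 in 5HT and -0.18 to 0.032 in mDA at 4 months and -0.14 to 0.17 in mDA at 8 months, and Tle6 from -0.39 to 0.037 there. By DESeq2 Tle6 passed for the wt 5HT ages (adjusted p = 0.0468) and for the cell types at 4 months (adjusted p = 0.0391), both resting on 1 wt count. No paired analysis was possible because animal numbers are not shared between groups.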
